A study of Rattus norvegicus with 8 samples.

Results

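The perineuronal net and hyaluronan matrix is represented here by 10 genes: the lecticans Acan, Bcan, Ncan and Vcan, the link protein gene Hapln1, the tenascins Tnr and Tnc, the hyaluronan synthase gene Has2, the hyaluronan receptor gene Cd44 and the receptor phosphatase gene Ptprz1. They were read through all probe sets of the Affymetrix rat array that the platform annotation gives to a single one of these symbols, which were 20 of the 31099 probe sets in the table. Of these, 15 probe sets of 8 genes had a mean log2 signal above the filter level of 4.35 (a signal of 20.3) and were tested. The other 5, both probe sets of Acan, the single one of Ncan and a pair for Vcan, were too dim and are given as values only.

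The tissue was the lateral nucleus and the basal nucleus of the amygdala, laser-dissected on the electrode side, in 4 groups of 2 arrays lettered A and B. An array stands for a pool of 2 of the 4 rats in its group. Epileptogenic rats had been stimulated in the amygdala until they entered status epilepticus, and showed no spontaneous seizure during the study. Control rats were operated and not stimulated. All rats had 5 habituation sessions from day 5. Training on day 8 had 2 trials with a 75 dB tone of 20 s and a 1.5 mA footshock of 1 s. In the epileptogenic paired and control paired groups the tone ended together with the shock. In the epileptogenic unpaired and control unpaired groups the shock came before the tone. Tissue was taken 3 h later, and every group was trained. Strain, age and sex are not given in the sources used here. Array medians ran from 29.0 to 43.2 signal units, and the small number of arrays limits the precision. The labels call the arrays biological replicates. Since each is a pool, the spread between arrays is one between pools and not between rats.

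Perineuronal nets are lattices of matrix that wrap the cell body and proximal dendrites of certain neurons, above all interneurons that contain parvalbumin. Hyaluronan, made at the cell surface by hyaluronan synthases, forms the backbone. Lecticans bind it through their N-terminal end, link proteins lock that bond, and tenascins cross-link the lecticans at their other end. In the amygdala, nets are known for their part in the persistence of fear memories.

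Among the 8 genes tested, Cd44 and Tnc were higher in epileptogenic rats, and Bcan, Vcan, Hapln1, Tnr, Has2 and Ptprz1 did not pass. Over both kinds of training, Tnc was 2.54-fold higher in 4 epileptogenic than in 4 control arrays. Cd44 was 7.87-fold higher on its brighter probe set, whose control mean lay under the filter level, and 2.15-fold higher on the dimmer one, which did not pass. The brighter Cd44 probe set thus entered the test only through its epileptogenic arrays, and the counts of calls below are a description. Of the 15 member probe sets 2 were called, both higher, at an adjusted p under 0.05 in limma. Over all 18625 probe sets tested 3.63% were called in either direction, 2.81% as higher and 0.827% as lower. These were 523 higher and 154 lower, or 377 and 12 with each array centred on its median, which moved the median difference of all probe sets from -0.11 to -0.0050. With the array letter as a block 3 member probe sets were called, against 16.2% of all probe sets, 7.58% as higher and 8.65% as lower. In 4 of the 15 member probe sets all epileptogenic arrays lay above all control arrays, against 7.29% of all probe sets tested (15.1% in either direction, and 10.6% with dim probe sets included). The median log2 difference of the 15 was 0.37, beside -0.11 over all probe sets tested. Over all 20 without the filter it was 0.37, beside -0.12. In tissue RNA, a change in the number of cells of a type cannot be told apart from a change in RNA per cell.

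**Figure D1:**
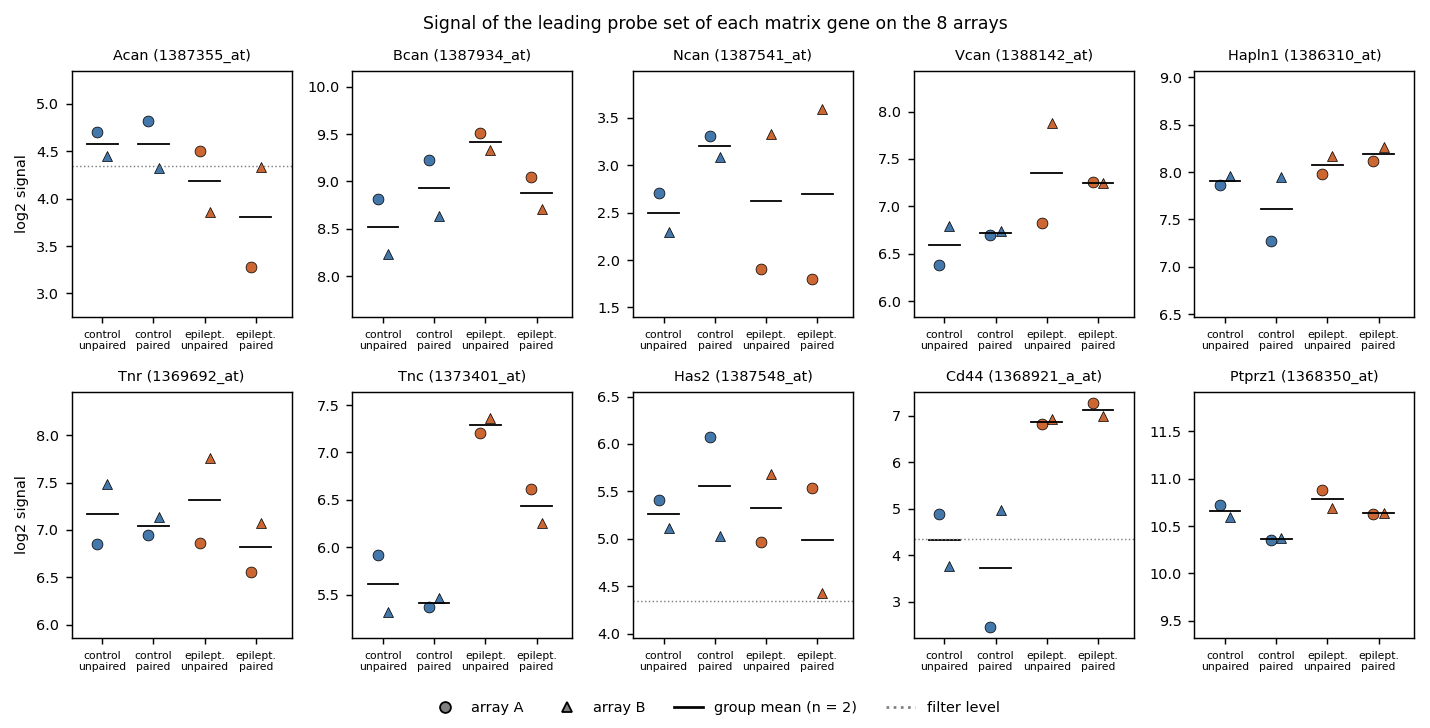
Log2 signal (vertical axes) of the leading probe set of each of the 10 matrix genes on the 8 arrays, by group (horizontal axes). Circles are arrays A, triangles arrays B, bars the means of 2 arrays, and the dotted line the filter level of 4.35. The 4 epileptogenic arrays sit above the 4 control arrays in Cd44, Tnc, Vcan and Hapln1, with a wide gap only in Cd44.

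Cd44 encodes the main cell-surface receptor for hyaluronan, found on reactive astrocytes and on leukocytes. Its brighter probe set had signals of 29.4 and 13.7 in control unpaired A and B, and of 5.50 and 31.3 in control paired A and B. It had 113 and 121 in epileptogenic unpaired A and B, and 154 and 126 in epileptogenic paired A and B. Thus every epileptogenic array lay above 100 units, whereas the control arrays spread over a wide range on both sides of the filter level. On the log2 scale the 4 epileptogenic arrays averaged 7.00 ± 0.19 (SD, n = 4) and the 4 control arrays 4.02 ± 1.17. The log2 difference was 2.98 ± 0.52 (SE; limma, adjusted p = 0.0171), or 0.00372 with the letter as a block. Its size rests on dim control signals, the lowest of them on control paired A. Without that array it was 2.35, and without control paired B 3.60. The call was lost without epileptogenic unpaired B (adjusted p = 0.0745) and without epileptogenic paired A (adjusted p = 0.0665), and kept without any other single array. The dimmer Cd44 probe set ran from 12.7 to 31.9 in control and from 24.4 to 67.5 in epileptogenic arrays. Its groups overlapped, and its log2 difference of 1.11 ± 0.40 (SE; adjusted p = 0.179) did not pass. With both probe sets averaged, Cd44 passed at 2.04 ± 0.43 (adjusted p = 0.0352). The control mean of this average also lay under the filter level, so the average too entered the test only through its epileptogenic arrays.

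Tnc encodes tenascin-C, a matrix glycoprotein of the developing brain that reappears around injury, where reactive astrocytes make it. Its only probe set had signals of 60.4 and 39.8 in control unpaired A and B, and of 41.2 and 44.1 in control paired A and B. It had 147 and 165 in epileptogenic unpaired A and B, and 98.1 and 76.3 in epileptogenic paired A and B. The lowest epileptogenic array thus stood above the highest control array, and the unpaired epileptogenic arrays were the highest. On the log2 scale the 4 epileptogenic arrays averaged 6.86 ± 0.52 (SD, n = 4) and the 4 control arrays 5.51 ± 0.28. The log2 difference was 1.35 ± 0.24 (SE; limma, adjusted p = 0.0195), or 0.00296 with the letter as a block. With single arrays left out, the difference of Tnc stayed between 1.19 and 1.50, but its call held only without control unpaired A or epileptogenic paired B. Leaving out a control array took the adjusted p of Tnc to 0.0620 (unpaired B), 0.0678 (paired A) or 0.0509 (paired B). Leaving out an epileptogenic array took it to 0.0507 (unpaired A), 0.0863 (unpaired B) or 0.0789 (paired A).

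The promoters of Cd44 and Tnc, the members called higher, are shown for the 250 bases before the start site that RefSeq annotates (GRCr8). RefSeq windows were found for 8 of the 10 genes. Capitals mark matches, on either strand, to AP-1 (TGANTCA), STAT (TTCNNNGAA), the TATA box (TATAAA), the CCAAT box (CCAAT), the GC box (GGGCGG) and NF-kB. The Cd44 window is chr3:109699425-109699674 on the minus strand, and the Tnc window is chr5:82476132-82476381 on the minus strand.
Cd44: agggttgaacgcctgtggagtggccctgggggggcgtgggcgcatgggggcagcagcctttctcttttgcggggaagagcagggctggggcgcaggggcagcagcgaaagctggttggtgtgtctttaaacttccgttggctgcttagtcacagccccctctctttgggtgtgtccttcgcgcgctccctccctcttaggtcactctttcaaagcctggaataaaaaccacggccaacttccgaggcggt
Tnc: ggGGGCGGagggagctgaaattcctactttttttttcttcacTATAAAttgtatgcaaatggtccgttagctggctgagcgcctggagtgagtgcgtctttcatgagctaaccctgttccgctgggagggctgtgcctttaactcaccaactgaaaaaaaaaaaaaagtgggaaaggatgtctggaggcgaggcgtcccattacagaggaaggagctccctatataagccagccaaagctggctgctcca
The Tnc window held a match to GGGCGG from -248 to -243 and one to TATAAA from -208 to -203 relative to the start site. The stretch tatataag near the end of the Tnc window does not match TATAAA and is unmarked. The Cd44 window held none of the 6 motifs. Matches are of letters only, and whether any of them is used was not tested. Of 33469 RefSeq promoter windows of the same length 12.9% held the TATA box, 30.5% the GC box, 34.0% the CCAAT box, 7.67% the STAT motif, 6.34% the AP-1 motif and 3.54% the NF-kB motif. No match says only that these letters are not in this window.

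Ptprz1 and Has2 did not pass. Ptprz1 encodes a receptor tyrosine phosphatase of glial cells, a secreted form of which, phosphacan, binds tenascins. Its brighter probe set ran from 1312 to 1689 in control and from 1586 to 1880 in epileptogenic arrays, with overlap, at a log2 difference of 0.20 ± 0.15 (SE; adjusted p = 0.528). The dimmer ran from 569 to 978 in control and from 870.5 to 1096 in epileptogenic arrays, also with overlap, at 0.37 ± 0.20 (adjusted p = 0.382). The 95% confidence intervals, from -0.14 to 0.53 and from -0.09 to 0.83, leave room for a change of less than 1 log2 unit in either. Has2 encodes an enzyme that extrudes hyaluronan from the cell surface. Its signals ran from 32.6 to 67.5 in control and from 21.5 to 51.4 in epileptogenic arrays, with overlap, at a log2 difference of -0.26 ± 0.39 (adjusted p = 0.781).

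None of the tested lectican probe sets passed. Bcan encodes brevican, an adult brain lectican made by glia and neurons. Its brighter probe set had 449 and 301 units in control unpaired A and B, and 600.1 and 398 in control paired A and B. It had 728 and 644 in epileptogenic unpaired A and B, and 528 and 418 in epileptogenic paired A and B. The epileptogenic unpaired arrays were thus the highest, and the epileptogenic paired arrays lay within the control range. The log2 difference over both trainings was 0.42 ± 0.22 (SE; adjusted p = 0.351), with a 95% confidence interval from -0.08 to 0.92. The dimmer Bcan probe set had the other sign, -0.11 ± 0.42 (adjusted p = 0.921).

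Vcan encodes versican, a lectican that exists in several splice forms and is made largely by cells of the oligodendrocyte lineage in the adult brain. The 5 Vcan probe sets all had a higher mean in epileptogenic arrays, and none passed. The brightest ran from 83.5 to 111 in control and from 113 to 235 in epileptogenic arrays. These groups did not overlap, by a margin of less than 2 units, and the log2 difference was 0.65 ± 0.27 (SE; adjusted p = 0.232). The second had 0.88 ± 0.48 (adjusted p = 0.372), and was called with the letter as a block (adjusted p = 0.0342). For the third the difference was 1.14 ± 0.76 (adjusted p = 0.466), and 0.14 without control unpaired A, where its signal was 6.38 against 68.6 to 103 in the other control arrays. Without control unpaired B it was 2.15. The 2 untested probe sets had differences of 0.59 and 0.67.

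Acan encodes aggrecan, the lectican most typical of perineuronal nets. Both of its probe sets lay under the filter level, with lower means in epileptogenic arrays. The dimmer had 50.3 and 6.30 units in control unpaired A and B, and 38.4 and 16.9 in control paired A and B. It had 3.81 and 3.93 in epileptogenic unpaired A and B, and 3.94 and 2.66 in epileptogenic paired A and B. All epileptogenic arrays therefore read below all control arrays, which held for 2.13% of the probe sets under the filter. In a limma fit without the filter its log2 difference was -2.59 ± 0.79 (SE; adjusted p = 0.150) and did not pass. The other Acan probe set ran from 20.1 to 28.3 in control and from 9.70 to 22.7 in epileptogenic arrays, with overlap, at -0.58 ± 0.50 (adjusted p = 0.681). Ncan encodes neurocan, a lectican of developing brain and of glial scars. Its signals, from 4.91 to 9.95 in control and from 3.49 to 12.1 in epileptogenic arrays, overlapped and all lay below the filter level.

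Hapln1 and Tnr, the link and the cross-link of the net, did not pass either. Hapln1 encodes the link protein that stabilises the bond between hyaluronan and lecticans. Its brightest probe set ran from 154 to 249 in control and from 252 to 308 in epileptogenic arrays. The groups did not overlap, but the log2 difference was 0.37 ± 0.21 (SE; adjusted p = 0.390). The other probe sets of Hapln1 showed -0.03 ± 0.29 for the second in brightness (0.11 with quantile normalization and 0.080 with median centring) and 0.34 ± 0.44 for the third, and overlapped. Tnr encodes tenascin-R, made by oligodendrocytes and some interneurons. Its signals ran from 115 to 180 in control and from 94.3 to 217 in epileptogenic arrays, with overlap, at -0.04 ± 0.28 (adjusted p = 0.959), or 0.0036 with quantile normalization and 0.065 with median centring. The 95% confidence interval, from -0.66 to 0.58, leaves room for a modest change in either direction.

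**Figure D2:**
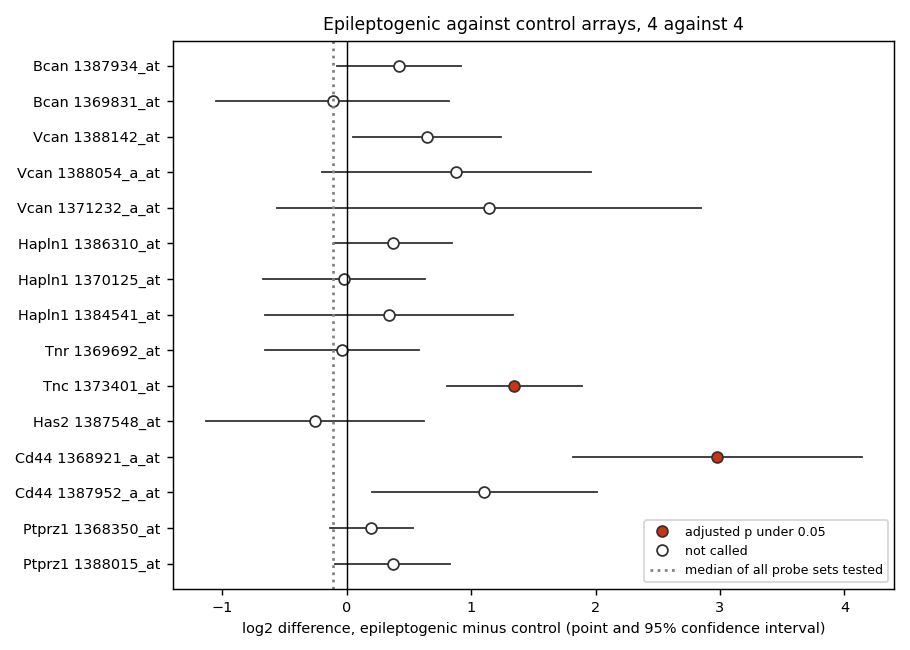
Log2 difference of epileptogenic minus control arrays, 4 against 4, with its 95% confidence interval (horizontal axis), for the 15 tested probe sets of the matrix genes (vertical axis). Filled points passed at an adjusted p under 0.05, namely the brighter Cd44 probe set and Tnc, and the dotted line is the median of all probe sets tested, -0.11.

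In the RefSeq gene order of GRCr8, each lectican gene stands beside a link protein gene with 0 protein-coding genes between them: Acan beside Hapln3, Bcan beside Hapln2, Ncan beside Hapln4 and Vcan beside Hapln1. Of the link protein genes outside the 10, Hapln2 and Hapln4 were tested and did not pass. Hapln4, which encodes a link protein of nets and nodes of Ranvier, had a log2 difference of -0.64 ± 0.23 (SE; adjusted p = 0.178) with no overlap of the groups. Hapln2, an oligodendrocyte link protein gene, showed -0.47 ± 0.70 (adjusted p = 0.775). Hapln3 lay under the filter level.

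Within each kind of training 2 arrays stood against 2, and 0 of the 15 member probe sets passed in limma (2 after unpaired and 1 after paired training with the letter as a block, where 7.01% and 4.62% of all probe sets were called). The means in these comparisons share no array, but the spread for both was estimated from all 8 arrays. Their SEs are therefore equal, and their p-values are not independent. Without the block 0.317% of all probe sets were called after unpaired training (0.290% higher, 0.0268% lower) and 0.532% after paired training (0.521% higher, 0.0107% lower). An unadjusted p under 0.05 was found for 4 member probe sets after unpaired training, against 12.5% of all probe sets, and for 2 after paired training, against 9.92%. The brighter Cd44 probe set had a difference of 2.54 ± 0.73 (log2, SE; adjusted p = 0.204) after unpaired and of 3.41 ± 0.73 (adjusted p = 0.0967) after paired training. With the letter as a block the Cd44 p after paired training was 0.0242 (adjusted). Tnc had one of 1.67 ± 0.34 (adjusted p = 0.0918, or 0.0130 with the block) after unpaired and of 1.02 ± 0.34 (adjusted p = 0.315) after paired training. The brighter Bcan probe set had one of 0.90 ± 0.31 (adjusted p = 0.283, or 0.0216 with the block) after unpaired and of -0.06 ± 0.31 (adjusted p = 0.982) after paired training. The interaction of training and epileptogenesis, which tests whether these differences are unequal, was -0.95 ± 0.44 for Bcan, with an unadjusted p of 0.0579 in limma, or 0.00439 (adjusted p = 0.866) with the letter as a block. It was -0.65 ± 0.48 for Tnc and 0.87 ± 1.03 for Cd44. No interaction was called among the members or among all probe sets (0%), with or without the block. At an unadjusted p under 0.05 the members numbered 0, or 1 with the block (Bcan), against 1.47% and 5.67% of all probe sets.

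**Figure D3:**
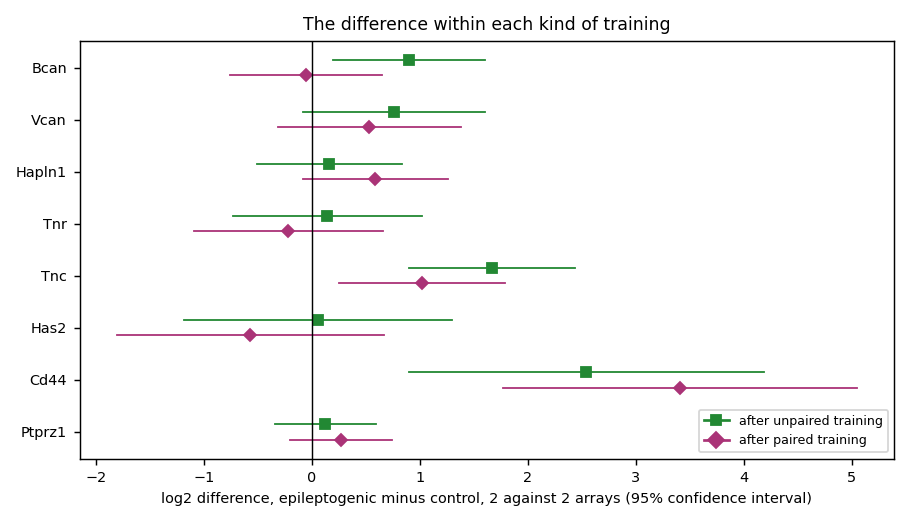
Log2 difference of epileptogenic minus control arrays after unpaired training (squares) and after paired training (diamonds), each 2 against 2 arrays with its 95% confidence interval (horizontal axis), for the leading probe sets of the 8 tested genes (vertical axis). The Bcan difference is 0.90 after unpaired and -0.06 after paired training, while Cd44 and Tnc are positive after both.

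Paired and unpaired training were compared as kinds of training, and whether the rats learned that the tone predicts the shock was not tested here. In limma 0 of the 15 member probe sets passed in all rats, in control rats or in epileptogenic rats, as did 0% of all probe sets. At an unadjusted p under 0.05 the counts of members were 0, 0 and 1, against 1.15%, 1.68% and 1.22% of all probe sets. The 1 was Tnc, at -0.85 ± 0.34 (log2, SE; unadjusted p = 0.0337 in limma) in epileptogenic rats. With the letter as a block the counts were 1 (Tnc), 1 (Bcan) and 2 (both), against 3.92%, 4.93% and 5.01% of all probe sets, and again none passed after adjustment (0%). In order, the mean log2 signal of Tnc was 7.28 in epileptogenic unpaired, 6.44 in epileptogenic paired, 5.62 in control unpaired and 5.41 in control paired arrays. The step between the epileptogenic groups did not pass after adjustment, nor did that between the control groups. For Cd44 the order was 7.13 in epileptogenic paired, 6.87 in epileptogenic unpaired, 4.33 in control unpaired and 3.71 in control paired arrays, and neither step within the epileptogenic or the control rats passed.

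Part of the spread within groups followed the array letter. Array B exceeded array A in all 4 groups in 4 of the 15 member probe sets: the second and the third of Vcan, the brightest of Hapln1, and Tnr. Array A exceeded B in all 4 groups in the brighter Bcan probe set. Over all probe sets tested B was higher in every group in 19.3% and A in 21.2%. The median signal of the whole array was higher for A than for B in all 4 groups. For A and B it was 43.2 and 33.8 in control unpaired and 39.6 and 29.0 in control paired arrays. In epileptogenic arrays it was 35.0 and 32.2 (unpaired) and 36.6 and 30.5 (paired). The letter differences of single probe sets include this shift. For Tnr the mean of B minus A was 0.56 on the log2 scale, larger than its difference between epileptogenic and control arrays. For the second Vcan probe set it was 1.23 and for the brighter of Bcan -0.42. Cd44 and Tnc showed no such order. The groups of the brighter Cd44 probe set and of Tnc did not overlap, so their difference within each letter had to be positive. It was 3.38 among arrays A and 2.58 among arrays B for Cd44, and 1.27 and 1.42 for Tnc. What the letters stand for is not stated.

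By Pearson correlation of log2 signal over the 8 arrays, the genes with a symbol most like Cd44 were Dcxr (0.981), Ifi27l2b (0.977) and Fcgr2b (0.977). Those most like Tnc were Phactr4 (0.989), Dynlt1 (0.984) and Cyba (0.979). Vcan was most like Resf1 (0.985), Eva1a (0.973) and Errfi1 (0.973). Bcan was most like Eloa (0.967), Parp4 (0.952) and Stk10 (0.949). These values describe 8 arrays that share their groups and letters.

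Other genes that make, cut or bind this matrix were read from 5 lists, and their counts of calls are a description. Calls and differences are for the brightest probe set of each gene. Over all probe sets tested 2.81% were called higher and 0.827% lower, or 7.58% and 8.65% with the letter as a block. The largest set of calls was in the breakdown of chondroitin sulphate and the proteases that cut lecticans, with their inhibitors, where 6 of 18 tested genes rose and 0 fell (9 and 0 with the letter as a block, 2 to 5 and 0 with single arrays left out). The median log2 difference of that list was 0.75, beside -0.11 over all probe sets tested. Adamts4, an aggrecanase that cuts aggrecan and brevican, had signals of 92.8 to 125 in control and 231 to 285 in epileptogenic arrays, and rose by 1.28 ± 0.21 (log2, SE; adjusted p = 0.0145). Plau, which encodes urokinase, rose by 3.10 ± 0.55 (adjusted p = 0.0187). Ctss, a cathepsin of microglia and macrophages, rose by 2.02 ± 0.25 (adjusted p = 0.0040), and Timp2, an inhibitor of metalloproteinases, by 1.24 ± 0.18 (adjusted p = 0.00715). Dimmer probe sets of Timp2 and Plau lay under the filter level, with overlap. Their log2 means in control and epileptogenic arrays were 4.12 and 4.11 for Timp2, and 2.58 and 3.50 for Plau. With single arrays left out the call held in 8 of 8 fits for Ctss and Timp2, in 5 for Plau and in 4 for Adamts4. The difference of Plau was 2.39 without epileptogenic paired B and 3.81 without epileptogenic paired A, and its call was lost without control unpaired B, control paired A or epileptogenic unpaired B. The genes that rose thus included proteases and an inhibitor of proteases.

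Of 25 tested genes of receptors and ligands 3 rose and 1 fell (8 and 3 with the letter as a block, 1 to 3 and 0 to 1 with single arrays left out), at a median of 0.07. Over all probe sets tested the shares called higher and lower were 2.81% and 0.827%, or 7.58% and 8.65% with the block. Msn encodes moesin, which ties the tail of Cd44 to actin. It had signals of 89.0 to 140 in control and 349 to 480.4 in epileptogenic arrays, and rose by 1.91 ± 0.21 (log2, SE; adjusted p = 0.00294). The integrin genes Itgb1 and Itgb3 rose by 1.21 ± 0.24 (adjusted p = 0.0267) and by 2.58 ± 0.45 (adjusted p = 0.0178). Dimmer probe sets of Msn and Itgb1 lay under the filter level, with overlap. Their log2 means in control and epileptogenic arrays were 1.64 and 1.57 for Msn, and 3.56 and 4.71 for Itgb1. The control mean of Itgb3, 3.48 on the log2 scale, lay below 4.35, so that Itgb3 entered the test only through its epileptogenic arrays. Cntn4, a contactin gene of neurons, fell by 1.30 ± 0.27 (adjusted p = 0.0331). With single arrays left out the call held in 8 of 8 fits for Msn, in 5 for Itgb3, in 3 for Itgb1 and in 1 for Cntn4.

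No tested gene that synthesises the sugar chains passed. Of the 22 genes listed for chondroitin sulphate synthesis and sulphation, 17 had a probe set. Xylt1, B3galt6, Chst3, Chst11 and Chst12 lay under the filter level and were not tested. In chondroitin sulphate synthesis and sulphation 0 of 12 tested genes passed in limma (2 at an unadjusted p under 0.05, and 1 with the letter as a block), at a median of -0.04. Over all 18625 probe sets tested 3429 had an unadjusted p under 0.05. With the block 16.2% of them were called (7.58% higher, 8.65% lower). Chsy1, a chondroitin synthase gene, showed 0.84 ± 0.27 (log2, SE; adjusted p = 0.135), and was called with the block (adjusted p = 0.00296). B3gat3, a linker enzyme gene, showed -0.57 ± 0.25 (adjusted p = 0.267). In hyaluronan synthesis, binding and breakdown 1 of 9 rose, Hexa, a lysosomal hexosaminidase gene, by 1.02 ± 0.20 (adjusted p = 0.0239). The letter block gave 1 higher and 1 lower there, and the median was 0.08. In the wider matrix 1 of 7 rose, Sparc, a glycoprotein gene of glia and vessels, by 0.92 ± 0.20 (adjusted p = 0.0373). A dimmer Sparc probe set overlapped, at log2 means of 4.22 ± 0.77 (SD, n = 4) in control and 4.87 ± 0.31 in epileptogenic arrays. The letter block gave 2 higher and 1 lower in the wider matrix, and the median was -0.24. With single arrays left out the call held in 2 of 8 fits for Hexa and in 1 for Sparc.

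**Figure D4:**
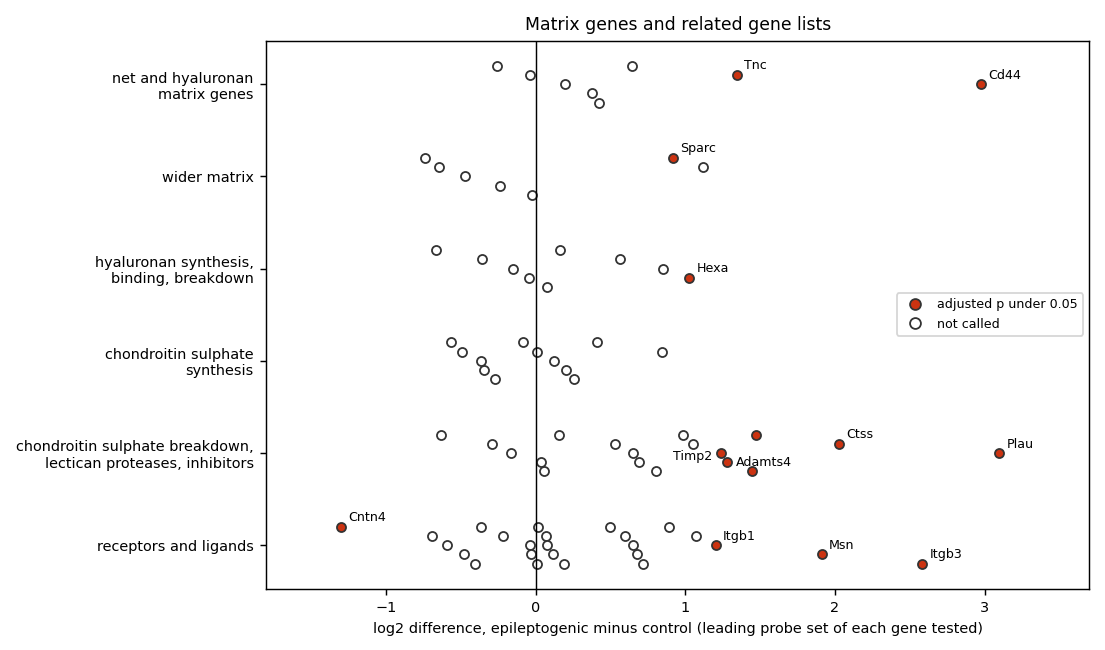
Log2 difference of epileptogenic minus control arrays (horizontal axis) for the leading probe set of each tested gene, by gene list (rows). Filled points passed at an adjusted p under 0.05. They include Cd44 and Tnc among the net and hyaluronan genes and 6 of 18 genes in the list of breakdown enzymes, proteases and inhibitors.

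Markers of the cell types that could carry these genes were read in the same arrays, and their part in the results was not tested. Over all 18625 probe sets tested 2.81% were called higher and 0.827% lower, or 7.58% and 8.65% with the letter as a block. An unadjusted p under 0.05 in limma was found for 3429 of them. Of 9 microglia and macrophage markers 8 rose (3 to 7 with single arrays left out), and their summed signal ran from 632 to 983 in control and from 3499.6 to 6122 in epileptogenic arrays. Those with the smallest p were C1qa at 2.40 ± 0.21 (log2, SE), Fcgr2b at 3.36 ± 0.35, Aif1 at 2.72 ± 0.41 and Cd68 at 3.98 ± 0.68. The control mean of Cd68, 4.12 on the log2 scale, lay below the filter level, so that it entered the test only through its epileptogenic arrays. Leaving out control paired A took its difference to 3.00, leaving out control paired B took it to 4.96, and its call was lost without epileptogenic unpaired B or epileptogenic paired A. Of 8 astrocyte markers 2 rose (1 to 2 with single arrays left out), Gfap by 2.83 ± 0.29 and Aqp4 by 0.84 ± 0.16, and the summed signal overlapped (14170.4 to 24425 and 20473 to 25872). Of 7 markers of meninges and fibroblasts 0 passed in limma (5 at an unadjusted p under 0.05, 5 with the letter as a block, 0 to 3 with single arrays left out), led by Lum at 1.95 ± 0.46 and Col1a1 at 1.51 ± 0.36. Their sums ran from 421 to 742 and from 787 to 2348.

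Markers of the neurons that bear nets, or lie beside them, fell or did not pass. Of 5 tested markers of parvalbumin and other GABAergic neurons 0 passed in limma (1 at an unadjusted p under 0.05, 2 with the block). Over all 18625 probe sets tested 3429 had an unadjusted p under 0.05, and 0.827% were called lower (8.65% with the block). Kcnc2 showed -0.60 ± 0.17 (log2, SE; adjusted p = 0.0882) and Kcnc1 -0.68 ± 0.40 (adjusted p = 0.410), both potassium channel genes of fast-spiking neurons. Pvalb lay under the filter level, with log2 means of 4.03 ± 1.10 for the 4 control and 2.65 ± 2.23 for the 4 epileptogenic arrays (SD, n = 4 each). The sum over this list ran from 4458 to 6429.6 in control and from 2158.5 to 5684 in epileptogenic arrays. Of 7 excitatory neuron markers 3 fell: Lmo3 by 1.16 ± 0.23, Neurod1 by 1.10 ± 0.24 and Neurod6 by 1.33 ± 0.29. Their sums ran from 1812 to 2392 and from 908 to 1053, and with single arrays left out 0 to 1 of them fell (5 with the letter as a block).

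The remaining cell types had 0 calls in limma. This held for 6 markers of oligodendrocyte precursors (2 at an unadjusted p under 0.05, 2 with the block), 7 of oligodendrocytes and myelin (2 and 3), 6 of endothelium and mural cells (1 and 0) and 1 of blood cells (0 and 0). Over all 18625 probe sets tested 3429 had an unadjusted p under 0.05, and 16.2% were called with the block. By the smallest p these cell types were led by Lhfpl3 at 0.83 ± 0.21 (log2, SE) and Cspg4 at 1.12 ± 0.35, by Mobp at 1.02 ± 0.26 and Cnp at 0.85 ± 0.31, by Tek at 0.57 ± 0.24 and Rgs5 at 0.38 ± 0.29, and by Hbb at -1.02 ± 0.53. The sums of precursor markers met at their edges, from 1504 to 1711 in control and from 1709 to 2375 in epileptogenic arrays. Those of oligodendrocyte markers ran from 10008.8 to 12776 and from 12592 to 24786, and those of endothelial and mural markers from 627 to 939 and from 828 to 1173. Blood cell markers summed to 149 to 254 in control and 43.3 to 195 in epileptogenic arrays. None of the markers in any list was at 0 on any array. No probe set was (smallest signal 0.0266, array controls left out), so this does not show that the markers were detected.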

How the data were processed

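The authors deposited signal intensities on a linear scale, made with MAS5 per the submitters' processing notes, for 8 arrays. The MAS5 version and scaling target are not given in the sources used here. Beyond the log2 step nothing was normalized again. Without 57 array controls 31042 probe sets were left, and the 18625 whose log2 mean exceeded the 40th percentile entered the tests. Of the 31042, 20826 had a single symbol, 436 several and 9780 none. A gene is led by its brightest probe set.

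The 4 group means were fitted by limma (3.58.1, under R 4.3.3) with an intensity trend and two-sided tests, and p-values were adjusted by Benjamini-Hochberg across all 18625, with calls at 0.05. Deviations from group means correlated between arrays of like letter at 0.321 to 0.407 in all 6 pairs of groups, so the letter was also entered as a block. Each choice was also changed in turn: quantile or median scaling, 16 added before the log, other filters, no trend, single letters, mean probe sets and each array left out.

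The genes and lists were chosen with earlier results of these data known. Genes named from a list are at most 4 that passed, by smallest p, or at most 2 where none did. Figures used matplotlib 3.10.9 in Python 3.11.15.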

Additional observations from a re-analysis of the deposited data

Results flagged for a closer look

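In each set of 4 control or 4 epileptogenic arrays, the gap of the highest or lowest array to its neighbour was set against the range of the 4. Of 40 such sets 3 had a share above Dixon's critical value, and chance alone flags about 1 in 20. The signal of the third Vcan probe set in control unpaired A was 6.38, with a gap of 0.854 of the range. The signal of the brightest Hapln1 probe set in control paired A was 154, with a gap of 0.859. The signal of the dimmer Acan probe set in epileptogenic paired B was 2.66, with a gap of 0.911, in a probe set under the filter level. For no member was the epileptogenic difference called unequal between the kinds of training by the interaction test after adjustment.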

How the results depend on the processing

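For epileptogenic against control arrays over both trainings, 677 probe sets were called, 3022 with the replicate letter as a block, 389 with median centring (377 higher, 12 lower), 330 without the intensity trend, 1321 within letter B, and 224 to 435 with single arrays left out. Of the members 2 probe sets were called, 3 with the block, 1 with the filter at the 60th percentile (which leaves Cd44 untested), 1 within letter A, and 0 to 2 with single arrays left out. After unpaired training 59 were called, 1306 with the block, 98 with quantile normalization, 103 with the stricter filter, 0 with median centring, 0 without the trend, and 0 to 34 with arrays left out. Of the members 2 were called there with the block. After paired training 99 were called, 860 with the block, 0 with median centring, 0 without the trend, and 0 to 74 with arrays left out. Of the members 1 was called there with the block (Cd44), 1 with the offset of 16 (Cd44), and 0 to 1 with arrays left out. Beside the second Vcan probe set over both trainings, Tnc and the brighter Bcan probe set after unpaired training and Cd44 after paired training, the block changed no other call among the members. For paired against unpaired control rats 0 were called, and 0 to 2 with arrays left out. Where leaving out an array left a group with 1 array, its spread was taken from the other groups. Directions near 0 turned. Tnr was 0.0036 with quantile normalization, 0.065 with median centring and 0.11 within letter B. The second Hapln1 probe set was 0.11, 0.080 and, within letter A, 0.20. Within letter B, the dimmer Bcan probe set was 0.32 and the third of Hapln1 -0.046. With arrays left out Tnr ran from -0.26 to 0.18, the dimmer of Bcan from -0.34 to 0.12, the second of Hapln1 from -0.11 to 0.056, the third from -0.0034 to 0.68, Has2 from -0.53 to 0.021, and the brighter of Bcan after paired training from -0.35 to 0.24. The brighter Cd44 probe set (2.07 to 3.60, or 2.04 with both averaged) and Tnc (1.10 to 1.50) kept their sign in every alternative. With arrays left out or within a letter that sign was fixed in advance, since their groups did not overlap. The cause of these shifts was not tested. Detection calls were not used here, so dim signals have no measured background.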
